A study of Mus musculus with 12 samples.

Results

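Gene expression in the mouse subventricular zone at 18 months was compared with that at the neighbouring ages, 6 and 22 months, to find genes that were highest or lowest at 18 months. The contrast was the mean log2 level at 18 months minus the average of the means at 6 and at 22 months, where a level is log2 of the normalised read count plus 1. It used 9 of the 12 libraries of the study, 3 at each of the 3 ages, and the 2-month libraries only helped to estimate the spread. All mice were male and wild type. The tissue was dissected and broken up into single cells before total RNA was taken with Trizol. The strain C57BL/6 is stated for the 2-month samples alone. Whether the libraries of 1 age stem from different mice is not stated, so p-values reflect library-to-library spread only, and that spread may be technical. The question comes from the study's title, which names non-monotonic change with age. Of the 23725 genes in the table, 15663 reached 10 normalised counts in at least 3 libraries and were tested.

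The subventricular zone lines the lateral ventricle. Its neural stem cells are astrocyte-like cells that express Gfap and are quiescent for much of the time. Once activated they give rise to fast-dividing progenitors, and these produce neuroblasts that express Dcx and Dlx genes and migrate to the olfactory bulb. A sheet of ciliated ependymal cells separates the niche from the ventricle, and striatal neurons, oligodendrocytes, microglia and blood vessels lie beside it. Output of neurons from this niche is known to decline as mice age.

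The recovered reads per library ranged from 9183822 to 15962517 at 6 months, from 10842864 to 12991067 at 18 months and from 6381390 to 8992891 at 22 months. A count of 0 allowed a level of up to 1.74 to 4.41 normalised counts, for counting error only. Defining markers of the labelled tissue were present in each library: for the astrocyte and stem cell markers Gfap, Slc1a3 and Aqp4, the summed normalised count was 7374 to 7662 at 6 months, 8150.2 to 9717 at 18 months and 9431 to 9819 at 22 months. That of the neuroblast markers Dcx, Dlx2 and Sox11 was 1068 to 1510.1 at 6 months, 980.3 to 1061 at 18 months and 924 to 1124 at 22 months. Lymphocyte markers stayed near 0, with sums of 1.47 to 6.8 over the 9 libraries. Libraries stood apart in 3 groups of genes. Of the cell type markers, in replicate 1 of 18 months the count of Slc17a7, a vesicular glutamate transporter of cortical neurons, was 452, against at most 158 in the other 8. The median log2 level of the interferon-stimulated list, relative to each gene's mean over the 12 libraries, was 2.24 in replicate 1 of 22 months, against 0.10 and 0.27 in the other libraries of that age. That of the immediate early list was lowest in replicate 1 at each age, at -0.97 against -0.082 and -0.0017 at 18 months and -0.94 against 0.55 and 0.62 at 22 months.

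Few genes set 18 months apart from both neighbours. 227 of the 15663 tested genes (1.45%) passed an adjusted p of 0.05 in limma, which borrows information on the spread across genes, with Benjamini-Hochberg adjustment over all tested genes. Of these, 143 (0.913% of those tested) were higher at 18 months and 84 (0.536%) were lower. At an unadjusted p under 0.05 there were 2937 genes (18.8%), 1494 of them higher and 1443 lower. The log2 difference of the called genes was 0.36 at the median of the higher ones, with a range of 0.18 to 1.21, and -0.31 at the median of the lower ones, with a range of -0.77 to -0.19. The median over all tested genes was -0.0083.

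The contrast is the average of the step from 6 to 18 months and the step from 22 back to 18 months, so a gene could pass it on 1 step alone. Both steps use the same 18-month libraries, and the following counts only take the contrast apart. Among the 143 higher genes, the group mean at 18 months lay above both neighbours in 135 (26.5% of all tested genes did so) and between them in 8, but 140 had the larger step to 22 months. Their median step was 0.14 against 6 months and 0.60 against 22 months. 1 of them passed the adjusted threshold against 6 months and 141 did against 22 months. Among the 84 lower genes, all had a group mean below both neighbours (30.5% of all tested genes did so), 69 had the larger step to 22 months, 9 passed against 6 months and 80 passed against 22 months. Their median step size was 0.20 against 6 months and 0.40 against 22 months. Over all tested genes, 24 (0.153%) passed for 18 against 6 months and 2956 (18.9%) for 18 against 22 months. All 3 libraries of 18 months lay above all 6 neighbours in 29 of the 143 higher genes and below all of them in 54 of the 84 lower genes. Over all tested genes that was so in 233 (1.49%) and 385 (2.46%).

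**Figure D1:**
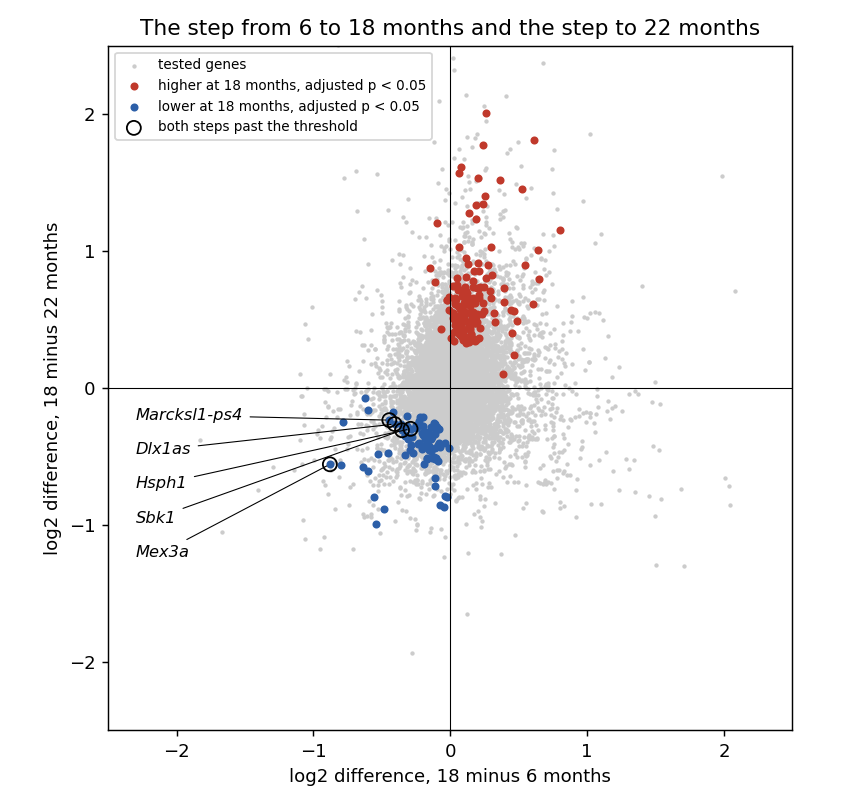
Each point is a tested gene, with its log2 difference of 18 minus 6 months on the horizontal axis and of 18 minus 22 months on the vertical axis. The 143 genes called higher at 18 months (red) spread mainly along the vertical axis, the 84 called lower (blue) lie below both neighbours, and circles mark the 5 genes for which both steps passed; 5 tested genes, none of them called, lie outside the axes.

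The number of called genes rested on single libraries. It was 5 without replicate 3 of 18 months, 61 without replicate 1 and 599 without replicate 2 of that age. It was 391, 118 and 34 without replicates 1, 2 and 3 of 22 months, and 114 without replicate 1 of 2 months. In each of these fits all 227 genes kept the sign of the difference and an unadjusted p under 0.05. Each fit shares most libraries with the one that chose the genes, so that outcome was largely fixed by the choice. The split also moved with the method. 63.0% of the called genes were higher, against 74.8% of the 381 genes called by edgeR's quasi-likelihood test on the recovered reads and 44.2% of the 138 called once a trend in transcript length and GC content was removed. Of the 64 called genes that the naming rule took or that were chosen later, 59 missed the threshold when at least 1 of the 12 libraries was left out.

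Both steps passed the threshold with the same sign, which is a turn at 18 months, in 5 genes (0.0319%), and all 5 were low points. At an unadjusted p under 0.05 in both steps there were 217 low points and 144 high points. No gene (0%) was a high point by limma at the adjusted threshold, although edgeR's test called 2 (Il33 and Abca8a) and DESeq2's Wald test 3 (the same genes and Neat1). The 5 low points were Hsph1, Sbk1, Mex3a, the antisense transcript Dlx1as and the pseudogene Marcksl1-ps4. Over the 25 other settings that could change a step, Sbk1 was a low point in 20, Mex3a in 18, Hsph1 in 14, Dlx1as in 7 and Marcksl1-ps4 in 6. No low point was left without replicate 2 of 6 months or without replicate 3 of 18 months, and there were 9 without replicate 1 of 6 months and 10 without replicate 1 of 22 months. Without replicate 3 of 18 months the limma adjusted p of the contrast was 0.0982 for Hsph1, 0.129 for Sbk1 and 0.169 for Mex3a.

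Hsph1 (chr5:149616843-149636498 in RefSeq on GRCm38.p6) encodes HSP110, which exchanges the nucleotide on Hsp70 chaperones. Its normalised read counts were 3469, 3255 and 3101 at 6 months, 2530.3, 2806 and 2697 at 18 months and 3348, 3219 and 3301 at 22 months. The 3 libraries of 18 months were all below the 6 others, and those of 6 and 22 months overlapped. The log2 difference was -0.29 ± 0.045 (SE), limma adjusted p = 0.00913, made up of -0.29 against 6 months (limma adjusted p = 0.0316) and -0.30 against 22 months (0.00143).

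Sbk1 (chr7:126248397-126295016), which encodes a serine/threonine kinase, had normalised counts of 1051, 1074 and 1034 at 6 months, 818, 865 and 792 at 18 months and 989.5, 1039 and 1035 at 22 months. Again every 18-month library was below every neighbour, by a margin wider than the range within any age. The difference was -0.33 ± 0.049 (SE), limma adjusted p = 0.00782, with steps of -0.35 against 6 months (limma adjusted p = 0.016) and -0.31 against 22 months (0.00181).

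Mex3a (chr3:88531946-88541394) encodes an RNA-binding protein of progenitor cells. It had normalised counts of 121, 186 and 177 at 6 months, 91, 80.2 and 86.1 at 18 months and 113, 120.5 and 148 at 22 months. No 18-month library reached the lowest neighbour. Replicate 1 of 6 months lay within the range of 22 months, apart from the other two libraries of its age. The difference was -0.72 ± 0.13 (SE), limma adjusted p = 0.0188, the largest fall among the named genes that passed, with steps of -0.88 against 6 months (limma adjusted p = 0.0212) and -0.56 against 22 months (0.0148).

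Dlx1as (chr2:71530638-71537891) is transcribed across Dlx1, a homeobox gene of neuroblasts and interneurons, and its counts were 308, 359 and 333 at 6 months, 268, 247 and 238 at 18 months and 299.9, 313 and 291 at 22 months. Its 18-month libraries were below the others, at -0.33 ± 0.067 (SE), limma adjusted p = 0.0267. The strandedness of the libraries is not given in the sources used here, so reads of Dlx1as and Dlx1 where they overlap cannot be told apart. Marcksl1-ps4 (chr13:4248735-4249777) is by its name a pseudogene of Marcksl1, and reads may be shared with that gene. Its difference was -0.34 ± 0.069 (SE), limma adjusted p = 0.0282, and Marcksl1 itself, looked up after the values were seen, had -0.30 ± 0.067 (SE), limma adjusted p = 0.0404, with 0.122 as adjusted p of the step to 22 months.

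**Figure D2:**
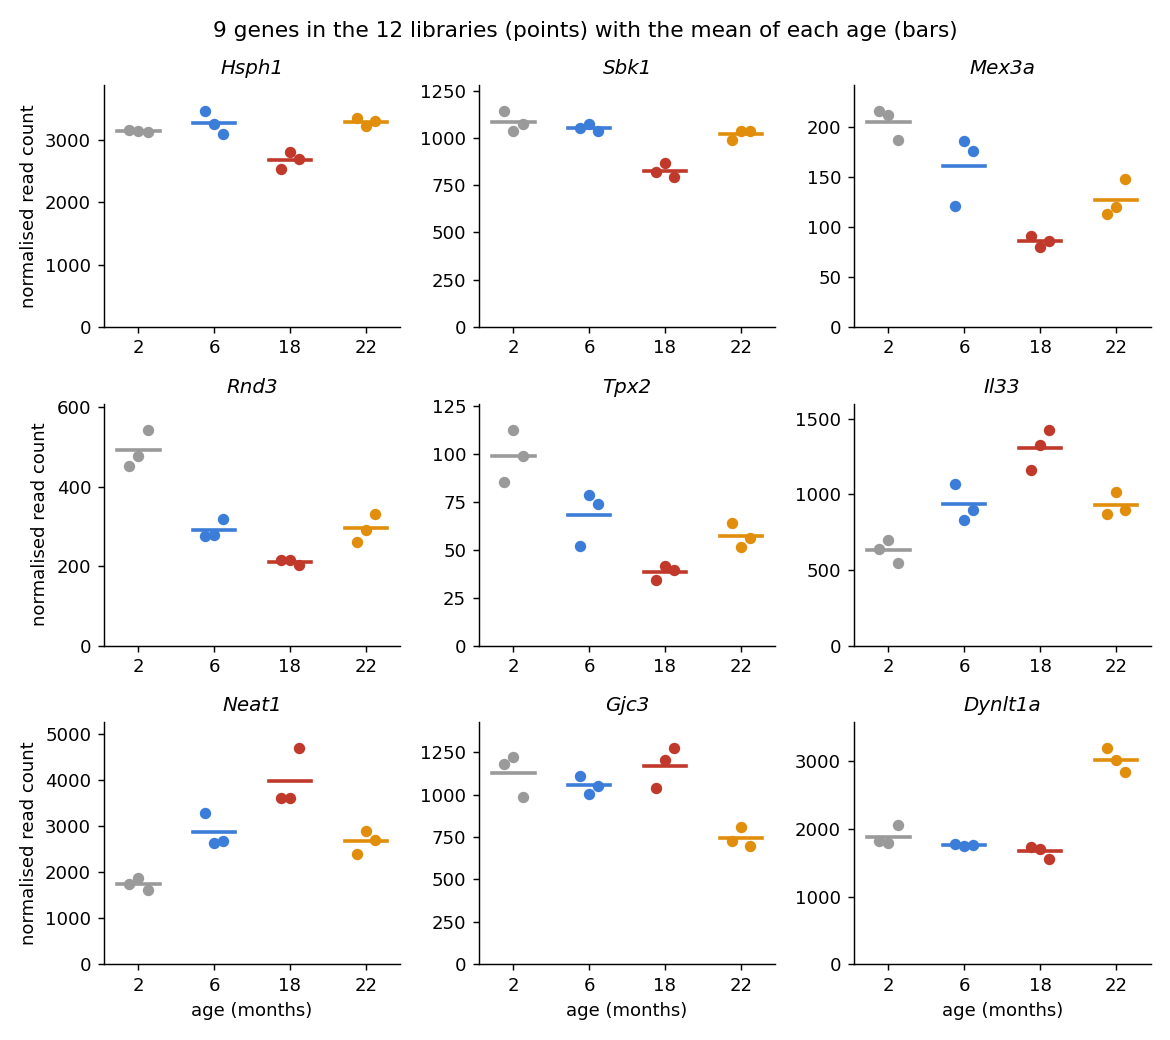
Normalised read counts of 9 genes in the 12 libraries, 3 at each age, with a bar at the mean of each age; each vertical axis starts at 0. In Hsph1, Sbk1, Mex3a, Rnd3 and Tpx2 the 3 points of 18 months lie below all points of 6 and 22 months, in Il33 and Neat1 they lie above them, in Gjc3 the low age is 22 months, and in Dynlt1a the 3 libraries of 22 months lie between 2844 and 3194, above all others.

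Chaperone genes lay on the lower side at 18 months. Cells use these proteins to fold new proteins and to hold damaged ones, and many of their genes are driven by heat shock factors through repeats of the bases GAA and TTC. In the fit as reported, all 18 tested genes of the heat shock and chaperone list had a negative log2 difference, with a median of -0.16. The medians of the steps were -0.18 against 6 months and -0.16 against 22 months. 2 of the 18, Hsph1 and Hspa8, passed the adjusted threshold, where 0.536% of all genes passed lower, and 16 did not pass. At an unadjusted p under 0.05, 11 of the 18 were lower and none higher, against 9.21% of all genes lower. With any 1 library left out, that number was 10 to 12, and it was 13 once the trend in length and GC content was taken out.

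Hspa8, the constitutive Hsp70 of the cytosol, was among the most abundant of these genes. Its counts were 13694, 11982 and 11152 at 6 months, 9928, 11341 and 10068 at 18 months and 13307, 13825 and 14165 at 22 months. The 18-month libraries overlapped with the lowest library of 6 months and lay below all 3 of 22 months. The difference was -0.32 ± 0.058 (SE), limma adjusted p = 0.02. Hsp90aa1, the inducible Hsp90, had -0.20 and did not pass (limma adjusted p = 0.0642).

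Chaperone genes outside that list were picked from the genes called lower, after their values were seen, so their direction was fixed by that choice and adds nothing to the list's count. Stip1, which couples Hsp70 to Hsp90, had counts of 1216, 1100.2 and 1021 at 6 months, 958, 961 and 965 at 18 months and 1176, 1196 and 1242 at 22 months. All 3 libraries of 18 months were below the others and close together. The log2 difference and limma adjusted p were -0.27 (0.0267) for Stip1, -0.26 (0.0359) for Fkbp4, an Hsp90 co-chaperone of steroid receptors, -0.27 (0.0223) for Calr, the lectin chaperone calreticulin of the endoplasmic reticulum, and -0.28 (0.0323) for Fkbp2, a prolyl isomerase there. Serpinh1, the collagen chaperone HSP47, fell by 0.50 with counts of 174, 191 and 200.3 at 6 months, 142, 111 and 141 at 18 months and 168, 160.1 and 225 at 22 months (limma adjusted p = 0.0346). Its 18-month values were lower than all the others.

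The heat shock element was searched as the triple repeat GAANNTTCNNGAA on both strands, from 250 bases before to 50 after each start in RefSeq on GRCm38.p6. It was present in 73 of the 12267 tested genes with a promoter entry (0.595%), in 4 of the 14 genes of the chaperone list with an entry (28.6%), in 1 of 58 genes called lower (1.72%) and in 0 of 113 called higher. The 4 were Hsph1, Chordc1, Hspd1 and Hspe1. The part GAANNTTC, which the triple repeat contains, was in 9 of the 14 and in 7.05% of all, and TTCNNGAA, its other part, was in 5 of the 14 and in 8.26% of all. Among genes called lower these parts were in 5.17% and 10.3%, and among those called higher in 6.19% and 10.6%. Hspd1 and Hspe1 are divergent neighbours whose promoter windows overlap, and their match is the same element read from opposite strands, so the 4 genes held 3 separate elements. Of the 4, Hsph1 alone passed the test at 18 months. Hspa8, which also passed, had no promoter entry and was not searched, and the same holds for Hsp90aa1, Hsp90ab1 and Cryab. Many chaperone genes are known to be driven through this repeat, so its share in the list has no bearing on 18 months. A match is a description of the letters and not a site of binding. The promoter of the low point Hsph1 (chr5:149636266-149636565, - strand) is shown beside those of the co-chaperone Chordc1 (chr9:18292017-18292316, + strand) and of the mitochondrial chaperonin Hspe1 (chr1:55087898-55088197, + strand), with the matches in capitals, overlapping matches run together, so that the repeat can be seen in each.
Hsph1: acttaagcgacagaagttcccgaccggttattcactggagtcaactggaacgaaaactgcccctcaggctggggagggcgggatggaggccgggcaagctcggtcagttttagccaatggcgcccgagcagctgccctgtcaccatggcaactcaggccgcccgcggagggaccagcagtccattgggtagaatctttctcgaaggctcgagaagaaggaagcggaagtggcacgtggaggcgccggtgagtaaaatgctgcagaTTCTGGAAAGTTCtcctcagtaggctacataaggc
Chordc1: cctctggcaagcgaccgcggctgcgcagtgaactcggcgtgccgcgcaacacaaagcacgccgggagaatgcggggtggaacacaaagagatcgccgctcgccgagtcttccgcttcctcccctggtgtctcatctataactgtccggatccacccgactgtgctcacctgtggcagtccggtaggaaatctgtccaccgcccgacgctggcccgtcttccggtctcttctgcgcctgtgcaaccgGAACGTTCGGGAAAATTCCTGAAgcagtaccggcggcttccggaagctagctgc
Hspe1: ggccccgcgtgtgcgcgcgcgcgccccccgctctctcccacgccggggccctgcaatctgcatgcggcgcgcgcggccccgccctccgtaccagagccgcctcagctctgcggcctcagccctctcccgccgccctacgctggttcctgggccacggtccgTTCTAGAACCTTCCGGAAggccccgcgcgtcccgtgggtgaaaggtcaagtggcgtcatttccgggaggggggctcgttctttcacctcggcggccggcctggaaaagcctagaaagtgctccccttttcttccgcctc
In the Hsph1 window shown the single match lies from base 16 to base 28 after the start, in Chordc1 3 overlapping matches span the start, and in Hspe1 2 lie before it. Hsph1 has another start with an entry, and in that window the same match lies from base 37 to base 49.

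Genes of dividing progenitors lay on the lower side at 18 months. Of the 15 tested genes of activated stem cells and progenitors, 2 passed lower, Mex3a among them, and 13 did not pass, beside 0.536% of all genes passing lower. The list's median was -0.21, and 9 were lower at an unadjusted p under 0.05, against 9.21% of all genes. In RNA of a whole tissue, fewer cells of a type and less RNA per cell cannot be told apart.

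Of the 32 tested proliferation genes, 3 passed lower, Tpx2, Ccnd2 and Hmgb2, none passed higher, and 12 were lower at an unadjusted p under 0.05. The shares over all genes were 0.536% passing lower and 9.21% lower at that unadjusted p. The median of the list was -0.25, beside medians of the steps of -0.52 against 6 months and -0.05 against 22 months. Tpx2, a spindle factor that activates Aurora kinase A, had counts of 52, 78.4 and 73.8 at 6 months, 34, 41.3 and 39.5 at 18 months and 63.9, 51.4 and 55.9 at 22 months. Those at 18 months lay below the other 6, at -0.68 ± 0.15 (SE), limma adjusted p = 0.0349. Ccnd2, cyclin D2 of the G1 phase, had another course, with counts of 1122, 1461 and 1319 at 6 months, 818, 900.4 and 807 at 18 months and 915, 851 and 889 at 22 months. At 18 and 22 months it overlapped, and the libraries of 6 months were all higher. The steps of Ccnd2 were -0.62 against 6 months (limma adjusted p = 0.0019) and -0.073 against 22 months (0.549). With the trend in length and GC content removed Ccnd2 was a low point, with steps of -0.61 against 6 months (limma adjusted p = 0.000765) and -0.25 against 22 months (0.0284). Hmgb2, a chromatin protein of dividing cells, was likewise lower than at 6 months (-0.60, limma adjusted p = 0.0212) and had a step of -0.16 to 22 months that did not pass (0.296). None of the 3 proliferation genes passed without replicate 1 of 18 months, without replicate 3 of that age or without replicate 3 of 22 months.

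Of the 22 tested neuroblast and young neuron genes, 2 passed lower, Cd24a and Igfbpl1, and 20 did not pass. The list's median was -0.12, beside medians of the steps of -0.11 against 6 months and -0.032 against 22 months. Of its genes, 9 were lower and 2 higher at an unadjusted p under 0.05. Over all genes 0.536% passed lower, and 9.21% were lower and 9.54% higher at that unadjusted p. Cd24a, a surface glycoprotein of neuroblasts and ependymal cells, had counts of 409, 482 and 479 at 6 months, 348, 412 and 332 at 18 months and 511, 509.8 and 506 at 22 months. The highest library of 18 months overlapped with the lowest of 6 months, while the 3 libraries of 22 months were close together above both. Cd24a differed by -0.41 ± 0.074 (SE), limma adjusted p = 0.019. Igfbpl1, an IGF-binding protein relative found in newborn neurons, had counts of 59.1, 88.3 and 85.2 at 6 months, 54.4, 54.3 and 42.3 at 18 months and 79.5, 76.4 and 74.6 at 22 months, with all 18-month values lowest. It differed by -0.60 ± 0.13 (SE), limma adjusted p = 0.0369. Neither gene passed without replicate 1 of 18 months, without replicate 3 of that age or without replicate 3 of 22 months.

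Foxj1, the master factor of motile cilia, was the 1 gene called of 18 ependymal genes tested, with counts of 465, 526 and 446 at 6 months, 348, 399 and 448 at 18 months and 533, 522 and 603 at 22 months. The highest 18-month library was within the range of 6 months, and all were below 22 months. The difference was -0.37 ± 0.079 (SE), limma adjusted p = 0.0319. The list had a median of -0.12, and 3 of its genes were lower at an unadjusted p under 0.05. Over all genes 0.536% passed lower and 9.21% were lower at that unadjusted p. With any 1 library left out, 1 to 6 ependymal genes were lower at that p. The ependymal markers Foxj1, Rsph1 and Ccdc153 summed to 767 to 841 at 6 months, 666 to 819 at 18 months and 948 to 1135 at 22 months, so the age that stood apart in this sum was 22 months. Capsl, a calcyphosine-like gene outside the list, had counts of 47.9, 38.9 and 41.3 at 6 months, 32.3, 30.8 and 27.3 at 18 months and 62.6, 48.5 and 59 at 22 months and differed by -0.69 ± 0.16 (SE), limma adjusted p = 0.0405. Its 18-month libraries were lower than all others.

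Several other genes had all 3 libraries of 18 months below all 6 neighbours. Rnd3, a small GTPase that antagonises actin stress fibres, had counts of 275, 279 and 319 at 6 months, 216, 216 and 202 at 18 months and 262, 292 and 332 at 22 months and a difference of -0.47 ± 0.084 (SE), limma adjusted p = 0.0188. The log2 difference and limma adjusted p were -0.35 (0.02) for the tetraspan membrane protein Emp2, -0.34 (0.0459) for the transcriptional repressor E2f6, -0.34 (0.0223) for Nrep, a protein of regenerating neurons, -0.33 (0.0327) for the synaptic adhesion protein Lrrtm1 and -0.38 (0.0223) for the Ras exchange factor Rasgef1c. Of these, Rasgef1c had the most unequal steps, -0.20 against 6 months and -0.56 against 22 months.

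Striatal projection neurons lie under the niche, and 4 of 20 tested genes of these cells passed lower: Rxrg, a retinoid receptor, Gng7, a G protein subunit, Adora2a, an adenosine receptor, and Drd2, the dopamine D2 receptor. The list's median was -0.11, and 9 were lower at an unadjusted p under 0.05. The shares over all genes were 0.536% and 9.21%. Rxrg had counts of 1173, 1303 and 1109.6 at 6 months, 1065, 1172 and 1061 at 18 months and 1491, 1617 and 1565 at 22 months. The 18-month libraries overlapped with those of 6 months and were below 22 months, at -0.31 ± 0.056 (SE), limma adjusted p = 0.0188. Adora2a differed by -0.24 and Gng7 by -0.20. The 4 genes missed the threshold without replicate 1 of 18 months, without replicate 3 of that age and without replicate 3 of 22 months. The striatal markers Drd1, Penk and Ppp1r1b summed to 33189 to 35845 at 6 months, 31031 to 36465 at 18 months and 37532 to 39928 at 22 months. They were highest at 22 months, and the part of tissue composition in the result was not tested.

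A group of Dynlt1 and Tmem181 gene copies on chromosome 17 had the 5 smallest p-values of the comparison, but the age that stood apart was 22 months. Dynlt1a, a dynein light chain (chr17:6306344-6317520), had counts of 1773, 1742 and 1759 at 6 months, 1738, 1709.96 and 1554 at 18 months and 3194, 3013 and 2844 at 22 months. The libraries of 6 and 18 months lay next to each other, and those of 22 months were all far higher. The steps were -0.078 against 6 months (limma adjusted p = 0.765) and -0.86 against 22 months (7.91e-07). Dynlt1f (chr17:6646606-6655965) differed by -0.42 ± 0.054 (SE), limma adjusted p = 0.00185. Nearby lie Tmem181a (chr17:6256726-6308314), Tmem181b-ps (chr17:6439002-6450994) and Tmem181c-ps (chr17:6610103-6620925), which were chosen after their values were seen. Tmem181a had a step of -0.021 against 6 months and -0.79 against 22 months, Tmem181b-ps of -0.036 and -0.79, and Tmem181c-ps of -0.045 and -0.87. These 5 were the genes called without replicate 3 of 18 months. Reads of the copies may be shared between them, so the value of a single copy is uncertain.

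Il33, Abca8a and Neat1, the high points of the count tests, were each highest in the 3 libraries of 18 months. Il33, a nuclear cytokine of glia that is released on damage, had counts of 1069, 829.7 and 899 at 6 months, 1163, 1327 and 1427 at 18 months and 871, 1014 and 894 at 22 months. The highest of the 6 neighbours, replicate 1 of 6 months, came close to the lowest 18-month library. The difference was 0.49 ± 0.088 (SE), limma adjusted p = 0.019. Its steps were of like size, 0.49 against 6 months (limma adjusted p = 0.0773) and 0.49 against 22 months (0.00381), so that the step from 6 months missed the threshold. It was a high point without replicate 1 of 6 months, without replicate 1 of 22 months and without replicate 3 of 2 months. Abca8a, a lipid transporter of the ABC family, had counts of 302, 256 and 263 at 6 months, 341, 359.8 and 426 at 18 months and 274, 316 and 262 at 22 months and a difference of 0.43 ± 0.088 (SE), limma adjusted p = 0.0287. Its 18-month values were the highest. Fmn1, an actin-nucleating formin, had steps of 0.60 and 0.61, at a low level of 79.1, 70.5 and 86.1 counts at 18 months (limma adjusted p = 0.0427 for the contrast).

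RNAs that stay in the nucleus or take part in splicing were the list with the most genes called higher. Of 22 tested members, 5 passed higher, against 0.913% of all genes, none passed lower, and 17 did not pass. They were Malat1, Neat1, Meg3, D4Wsu53e (Rsrp1 in RefSeq) and D7Ertd715e (Snhg14). The list's median was 0.17, and 9 were higher at an unadjusted p under 0.05 against 9.54% of all genes. Neat1, the RNA scaffold of paraspeckles, had counts of 3282, 2628 and 2681 at 6 months, 3598, 3614 and 4688 at 18 months and 2396, 2901 and 2704 at 22 months. All 18-month values were above the others, with replicate 3 well above the rest. The difference was 0.52 ± 0.089 (SE), limma adjusted p = 0.0173, and without the trend in length and GC content it was 0.19 with an adjusted p of 0.435.

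Malat1, an abundant RNA of nuclear speckles, had counts of 9590.4, 9647 and 11067 at 6 months, 12635, 10900.00 and 13840.3 at 18 months and 7282, 5198 and 5860.03 at 22 months. Replicate 2 of 18 months was below the highest library of 6 months, and all libraries of 22 months were lower than the rest. The difference was 0.67 ± 0.10 (SE), limma adjusted p = 0.00782. D4Wsu53e, which encodes an arginine and serine rich protein, had the opposite balance, with a step of 0.38 against 6 months (limma adjusted p = 0.00443) and 0.11 against 22 months (0.183). It was the 1 higher gene that passed against 6 months. Meg3 and D7Ertd715e, named here for the count and not by the rule, differed by 0.40 (0.0256) and 0.45 (0.0223) in log2 difference and limma adjusted p.

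Myelin genes were all on the higher side. Oligodendrocytes make myelin, and all 25 tested genes of that list had a positive difference, with a median of 0.29 and medians of 0.13 against 6 months and 0.44 against 22 months. 1 of the 25 passed higher, 24 did not pass, and 17 were higher at an unadjusted p under 0.05, where 0.913% of all genes passed higher and 9.54% were higher at that unadjusted p. DESeq2's test called 10 of the 25 higher and edgeR's 4, and 15 passed when 6 and 22 months were weighted by age. Without 1 library 0 to 6 passed, with 6 without replicate 1 of 6 months. At the unadjusted p the number was 8 without replicate 3 of 18 months and 22 without replicate 1 of that age. The gene that passed was Gjc3, the connexin of oligodendrocytes, with counts of 1107, 1004 and 1053 at 6 months, 1036, 1203 and 1273 at 18 months and 729, 807 and 699 at 22 months. The libraries of 6 and 18 months overlapped, and those of 22 months were lower than all. The difference was 0.40 ± 0.076 (SE), limma adjusted p = 0.0223. Myrf, the factor that turns on myelin genes, had 0.42 and did not pass (limma adjusted p = 0.0633). The marker Mbp, myelin basic protein, had counts of 39852 to 51500.5 at 6 months, 39273 to 52590.3 at 18 months and 31092 to 43206 at 22 months, and the marker Mog, a protein of the outer myelin surface, of 887 to 1176 at 6 months, 889 to 1212 at 18 months and 700.1 to 830.02 at 22 months. Among the 12 genes of oligodendrocyte precursors none passed by limma or edgeR and 1 was called higher by DESeq2, 3 passed higher without replicate 2 of 18 months and 1 without replicate 1 of 22 months, 4 were higher at an unadjusted p under 0.05, and the median was 0.17.

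**Figure D3:**
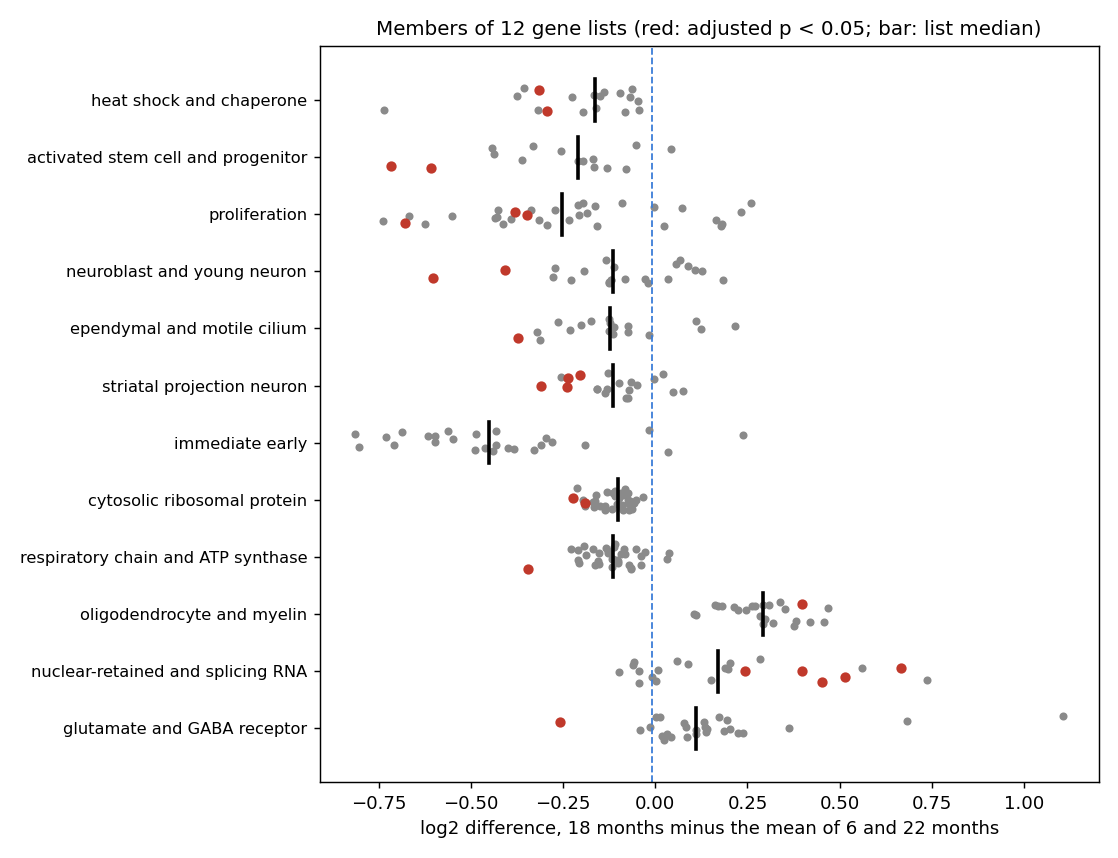
Log2 difference of 18 months minus the mean of 6 and 22 months for each tested member of 12 gene lists, with members past the adjusted threshold in red, a black bar at the list's median and a dashed line at the median of all tested genes. All chaperone members lie below 0 and all myelin members above it, and the immediate early genes have the lowest median of the 12 without a member that passed.

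Other genes named by size of difference were higher in all 3 libraries of 18 months than in the 6 neighbours, with the larger step to 22 months. Greb1l had counts of 29.6, 32.5 and 31.6 at 6 months, 57, 34.8 and 46.6 at 18 months and 16.9, 10.3 and 22.8 at 22 months, the largest difference of these at 0.99 ± 0.22 (SE), limma adjusted p = 0.038. In all 3 ages it was lowly expressed. The log2 difference and limma adjusted p were 0.83 (0.0325) for the potassium channel Kcnh7, 0.72 (0.0369) for the membrane linker Epb4.1l4b, 0.72 (0.0349) for the ABC transporter Abca6, 0.51 (0.0183) for the lipid phosphatase Synj2 and 0.48 (0.0286) for the cadherin Cdh19. They were 0.48 (0.0223) for the guanine nucleotide exchange factor Arhgef28, 0.40 (0.0414) for the keratin Krt12, 0.40 (0.0282) for the integrin ligand Edil3, 0.40 (0.0169) for the Cdc42 exchange factor Dock9 and 0.40 (0.0147) for the receptor phosphatase Ptprd. Ptprd had counts of 1838, 1802 and 1844 at 6 months, 1967, 1919 and 2286 at 18 months and 1280.2, 1296 and 1399 at 22 months. Its libraries of 6 and 18 months were near each other and those of 22 months far below.

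The genes called higher shared a long transcript, a property the contrast did not use. Their longest transcript had a median length of 7924 nt, and 97 of the 139 with a length (69.8%) exceeded 6000 nt. Among the genes called lower the median was 2794.5 nt, with 3 of 80 (3.75%) over 6000 nt, and over all tested genes it was 3422 nt, with 14.7% over 6000 nt. Examples chosen after their values were seen are large proteins of transport and the cell skeleton. Kif1b, a kinesin motor, had counts of 8285, 8606 and 8399 at 6 months, 8813, 8713 and 9709.6 at 18 months and 5885, 6405 and 6243 at 22 months. At 18 months it was slightly above 6 months and far above 22 months. The steps of Dync1h1, the dynein heavy chain, were 0.04 against 6 months (limma adjusted p = 0.892) and 0.65 against 22 months (1.17e-05). Ahnak, a giant scaffold protein, had -0.097 and 1.21, and Syne1, the nuclear envelope protein nesprin 1, 0.02 and 0.55, so both stayed near the level of 6 months, but the contrast of Syne1 turned to -0.096 with the trend in length and GC content removed.

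The same dependence ran through all genes. From transcripts under 1000 nt to those over 8000 nt, the median difference at 18 months went from -0.11 to 0.17. The median of 18 minus 22 months went from -0.24 to 0.32, while that of 18 minus 6 months stayed close to 0 in every class of length. The share of reads on genes with transcripts over 6000 nt was 20.9, 20.5 and 20.4% in the libraries of 22 months, against 22.8 to 25.2% at 6 months and at most 25.3% at 18 months. The 22-month libraries were thus apart from both other ages, which overlapped. How this share bears on the calls of long genes was not tested. Once the trend in length and GC content was removed, the difference of a called gene was at the median 0.76 times that reported, 61 genes were called higher and 77 lower, and 93 of the 227 were called again.

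**Figure D4:**
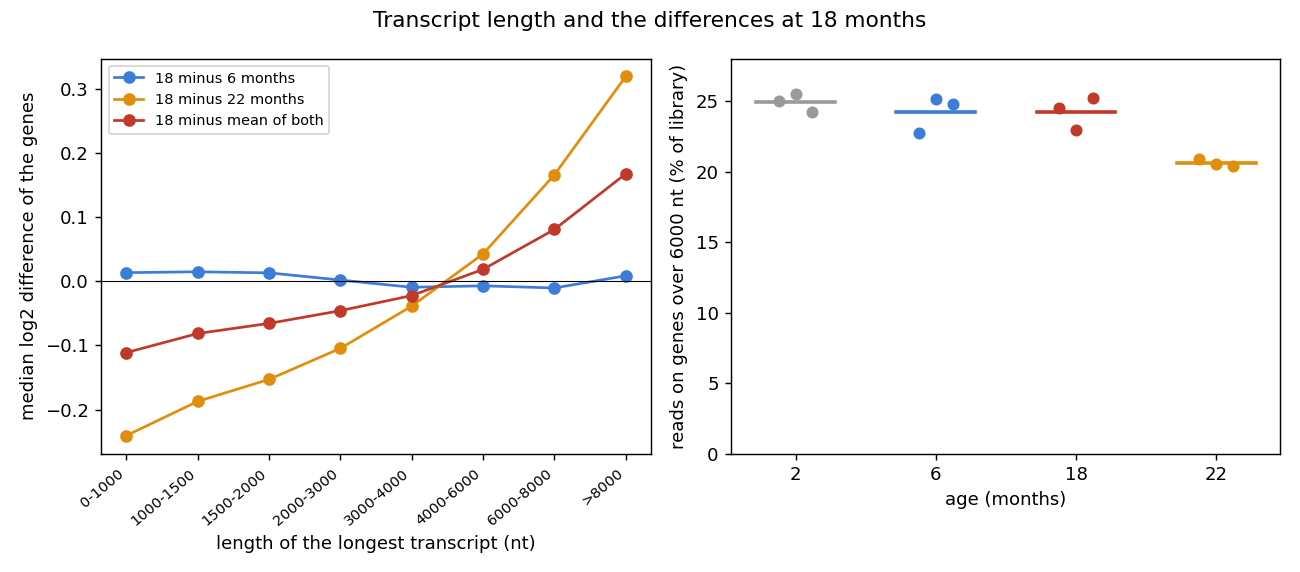
Left: median log2 difference of genes in 8 classes of transcript length, in nt, for 18 minus 6 months (blue), 18 minus 22 months (orange) and the contrast of 18 months with the mean of both (red). Right: share of the reads of each of the 12 libraries on genes with transcripts over 6000 nt, with a bar at the mean of each age; the blue line stays near 0 while the orange line climbs from -0.24 to 0.32, and the 3 libraries of 22 months lie lowest.

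The genes of cytosolic ribosomal proteins and of the respiratory chain, which have short transcripts, had median differences near 0 against 6 months and below 0 against 22 months. All 36 tested genes of cytosolic ribosomal proteins had a negative difference, with a median of -0.10, and 2 of them, Rplp0 and Rplp1 of the ribosomal stalk, passed lower, beside 0.536% of all genes. The medians of the steps were 0.05 against 6 months and -0.27 against 22 months, and 6 of the 36 had a group mean below both neighbours. Rplp1 had counts of 3083, 2739.8 and 2639.9 at 6 months, 2839, 2936 and 2620.1 at 18 months and 3766, 3849 and 3753 at 22 months. The 18-month libraries overlapped with 6 months and were below 22 months. Without the trend in length and GC content the median was -0.039 and none passed. Of 35 genes of the respiratory chain and ATP synthase, 1 passed lower, Ndufa1 of complex I at -0.35 ± 0.075 (SE), limma adjusted p = 0.0327, and the median was -0.12. Its steps had medians of 0.031 against 6 months and -0.25 against 22 months, and 8 of the 35 had a group mean below both neighbours. Of all tested genes, 30.5% had a group mean below both.

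Immediate early genes, which neurons and glia switch on within minutes of a stimulus, varied widely between libraries of 1 age. None of 26 passed by limma, edgeR or DESeq2, 7 were lower at an unadjusted p under 0.05, and the median was -0.45, with 24 of 26 negative. Over all 15663 tested genes 9.21% were lower at that p, and 8193 had a negative difference. Without replicate 1 of 18 months none of the 26 was lower at that p and the median was -0.17. Without replicate 1 of 22 months, 5 of the 26 passed lower and 20 were lower at an unadjusted p under 0.05, with a median of -0.72. In that fit 179 of all tested genes passed lower, and 3313 had an unadjusted p under 0.05 in either direction. Of the 26, 1 passed lower without replicate 2 of 18 months and 1 with 6 and 22 months weighted by age. Arc, a synaptic protein chosen after its values were seen, had counts of 1386, 2382 and 2354 at 6 months, 397, 1691 and 1716 at 18 months and 465, 3205 and 3394 at 22 months. Replicate 1 was by far the lowest at each age, and the groups overlapped (limma adjusted p = 0.422).

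Receptors for glutamate and GABA had 9 of 27 genes higher and 1 lower at an unadjusted p under 0.05, and the 1 that passed was lower: Grm4, a metabotropic glutamate receptor, at -0.26 ± 0.059 (SE), limma adjusted p = 0.0409. The shares over all genes were 9.54% higher and 9.21% lower at that unadjusted p, with 0.913% passing higher and 0.536% passing lower. DESeq2's test called 5 of the 27 higher and 1 lower, and edgeR's 2 higher and 1 lower. With a library left out, 0 to 5 passed higher, with 5 without replicate 2 of 18 months. The counts of Grm4 were 853, 925 and 828 at 6 months, 708, 696 and 686 at 18 months and 777, 829 and 797 at 22 months. The 18-month libraries were below the rest. Grin2a, an NMDA receptor subunit, had 0.68 and did not pass (limma adjusted p = 0.0506). The cortical neuron marker Slc17a7 was highest in replicate 1 of 18 months, and without that library 7 of the 27 were higher at an unadjusted p under 0.05. Of the 11 cortical genes none passed.

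No gene passed in the lists of microglia (22 tested), activated microglia (15), interferon-stimulated genes (25), antigen presentation (14) and complement (14), with medians of 0.085, 0.064, 0.27, 0.018 and 0.071. At an unadjusted p under 0.05 these lists had 2, 3, 1, 0 and 3 genes higher and none lower. Over all genes 9.54% were higher and 9.21% lower at that p. edgeR's test called 1 activated microglia gene and 1 complement gene higher, and DESeq2's called none in the 5 lists. Leaving out replicate 1 of 22 months, in which the interferon genes were far higher than in the other libraries of that age, changed these counts. Without it 4 interferon-stimulated genes passed higher and 15 were higher at an unadjusted p under 0.05, with a median of 0.57, while 3 complement genes passed higher and 3 antigen presentation genes were higher at the unadjusted p. In that fit 212 of all 15663 tested genes passed higher, and 3313 had an unadjusted p under 0.05 in either direction. Without replicate 2 of 18 months 2 complement genes and 1 microglia gene passed higher. With 6 and 22 months weighted by age all 5 medians were below 0, from -0.24 for antigen presentation to -0.027 for microglia. Lyz2, lysozyme of myeloid cells, passed both steps in opposite directions, which is no turn, with 1.14 against 6 months (limma adjusted p = 0.0019) and -0.47 against 22 months (0.0291). Clec7a, a receptor of activated microglia, was higher than at 6 months by 2.03 (limma adjusted p = 0.00519), and its step to 22 months of -0.72 did not pass (0.1).

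No gene passed among astrocyte and quiescent stem cell genes (20 tested, 3 higher and 5 lower at an unadjusted p under 0.05), choroid plexus (12), endothelium (16), mural cells and fibroblasts (12) or synaptic vesicles (20). The same was so for the BMP and TGF-beta (26), WNT (28) and Notch and Hedgehog (27) pathways, where 3, 1 and 1 genes were higher and 1, 2 and 5 lower at an unadjusted p under 0.05. Over all tested genes 9.54% were higher and 9.21% lower at that p. In the Notch list the lower genes included Dll1, a ligand, at -0.30 (0.112), and Hey1, a target, at -0.19 (0.12), with limma adjusted p in brackets. Nor did a gene pass among glucocorticoid-responsive genes (15), cholesterol synthesis (22), the core circadian clock (19), senescence (10), erythroid genes (5) or the 2 cold-inducible genes, Cirbp and Rbm3, which had 0.18 and 0.19. In the list of lymphocyte genes 1 was tested, Cd4 at -0.089. Among the lists of this paragraph DESeq2's test called 2 circadian, 1 synaptic, 1 mural or fibroblast and 1 astrocyte gene higher and 2 astrocyte genes lower, and edgeR's called 1 circadian and 1 synaptic gene higher. When 1 library was left out, at most 1 gene passed in any of these lists.

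**Figure D5:**
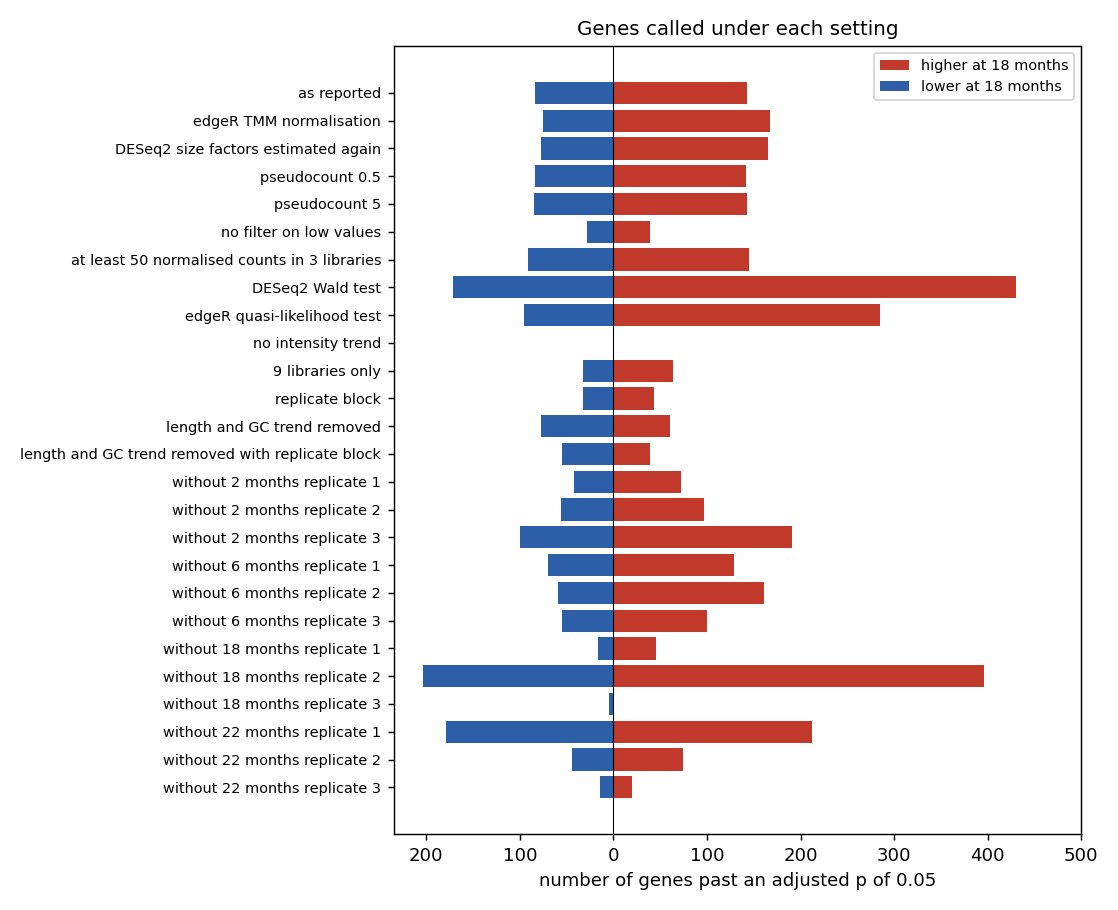
Number of genes past an adjusted p of 0.05 under each setting, with genes higher at 18 months drawn to the right and lower ones to the left. The fit as reported has 143 and 84, the fit without replicate 3 of 18 months has 0 and 5, and no gene is called without the intensity trend; the weighting by age, with 1018 and 674, is not drawn.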

How the data were processed

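RNA of the subventricular zone was measured in 12 libraries, 3 at each of 4 ages. The authors deposited 1 table of signal values, which are gene read counts scaled by a factor per library. The scaling was checked: with a tolerance of 1e-06, 100% of values were whole multiples of what 1 read is worth, so whole reads were recovered. The submitters' processing notes name DESeq2 and the build mm10. The aligner, the counting tool and the strandedness are not given in the sources used here. 1 column of the authors' own comparison was not used.

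Levels were log2 of the deposited value plus 1. All 12 libraries were fitted together by age with limma 3.58.1 (eBayes, intensity trend on, 8.96 prior degrees of freedom) in R 4.3.3. Tests covered genes that reached 10 normalised counts in 3 or more libraries and were two-sided, with Benjamini-Hochberg adjustment over all 15663 and a threshold of 0.05. A turn needed both steps past the threshold with the same sign. Alternatives were other size factors, pseudocounts and filters, edgeR 4.0.16 and DESeq2 1.42.0 on the recovered reads, fewer libraries, a replicate block, a removed trend in length and GC content (14853 genes, GENCODE), weights by age and each library left out. DESeq2 gave an adjusted p for the contrast to 8375 of the tested genes, and genes without one were counted as not called. The code was tested on simulated data. Positions and promoters are from RefSeq on GRCm38.p6.

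The named genes were up to 15 per direction by size of difference among called genes without overlap between the 18-month and the other libraries, skipping gene models without a proper symbol, every turning gene, and up to 3 genes of smallest p from each list. Some genes that met this rule are not reported here. The members, the 34 lists (677 of 682 genes found) and the tests were chosen with earlier results of these data known. Over all tested genes same-numbered libraries did not deviate together, with correlations of -0.187 to 0.159 over 18 pairs, so the numbers were not used to pair them, although the immediate early list was lowest in replicate 1 at each age. No molecular identifiers are described, and limits from a count of 0 cover counting error only.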

Additional observations from a re-analysis of the deposited data

How the results depend on the processing

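The sign of the difference and an unadjusted p under 0.05 held for all 227 called genes in every setting except those that removed the length and GC trend, where 218 of 219 with a value kept the sign and 201 the p, or 199 with the replicate block as well. These settings reuse the libraries by which the genes were chosen, so that outcome was largely fixed in advance. The number past the adjusted threshold moved more. It was 227 (143 higher, 84 lower, 0 high points, 5 low points) as reported. It was 67 (39, 28, 0, 2) with no filter on low values, 601 (430, 171, 3, 5) with DESeq2, 381 (285, 96, 2, 3) with edgeR, 0 (0, 0, 0, 0) without the intensity trend, where 2639 genes had an unadjusted p under 0.05, and 96 (64, 32, 0, 1) with 9 libraries. The number of DESeq2 rests on 8375 genes with an adjusted p, against 15663 for limma and edgeR. With the length and GC trend removed it was 138 (61, 77, 0, 7). Weighting 6 and 22 months by 0.25 and 0.75, as a straight line in age would, gave 1692 (1018, 674). With a replicate block it was 76 (43, 33, 0, 3), and with the block and the length and GC trend removed 94 (39, 55, 0, 6), so 41.5% were higher. The block made 4 of the 26 immediate early genes pass lower, and Npas4, named after its values were seen, became a low point with it, as did Egr2 with the block and that trend removed. Over all tested genes the numbers do not pair the libraries by their deviations, and 4 of 12 libraries correlated best with one of their own number. Other size factors, pseudocounts and the filter at 50 counts gave 226 to 242. Leaving out 1 library gave 5 to 599 called genes, 0 to 396 higher, 5 to 203 lower, 0 to 4 high points and 0 to 10 low points. The cause was not tested. Of the called genes that are named, Syne1 alone reversed, to -0.096 with the length and GC trend removed, with and without the replicate block. Of the named genes that were not called, Clec7a and Lyz2 went to -0.028 and -0.066 with the weights by age and Cd4 to 0.0049 without replicate 1 of 18 months, none of them past the threshold. Of the 64 called genes that the naming rule took or that were chosen later, 31 of 59 with a value passed with that trend removed, 64 passed with edgeR, 49 of 49 with a value with DESeq2, 39 with 9 libraries and 5 without replicate 3 of 18 months. With 3 libraries per age and 6381390 to 15962517 reads each, small differences of weakly expressed genes may have been missed. The smallest difference that could be detected was not determined.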
